A study of Mus musculus with 7 samples.

Results

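The 36 genes described here encode proteins of the lysosome: cathepsins and other proteases, the secreted cathepsin inhibitor cystatin C, glycosidases and lipid enzymes, membrane proteins, sorting and secreted proteins, the regulator Tfeb and subunits of the proton pump (V-ATPase). They were chosen by gene symbol, and all 36 were found among the 27998 genes of the UMI table. They were followed across the 11 clusters that the study's authors assigned and across 3 single-cell libraries of oligodendrocyte lineage cells (OLCs) sorted from adult mouse cortex at postnatal day 90. The control libraries came from Emx1-Cre:Sox10-GFP-TdTom mice, of which the study used 4. In these mice Cre acts in dorsal forebrain progenitors and their progeny, so OLCs of dorsal origin carry TdTom (control dOLCs, 5804 cells) and OLCs of ventral origin carry GFP (control vOLCs, 925 cells). The ectopic library (ectopic vOLCs, 2562 cells) holds GFP+ cells of mice that carried Sox10-GFP-DTA beside Emx1-Cre:Sox10-GFP-tdTom, of which 2 were used. There Cre also switches on diphtheria toxin A in dorsal OLCs, most but not all of which are lost, and ventral OLCs take up their place. All animals carry Emx1-Cre and the reporter, on a C57BL/6-B6CBA background. Single animals are not told apart in the annotation, and 4 further samples, from P0 mice, were not analysed here.

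Lysosomes are acidic organelles in which cathepsins, glycosidases and lipases break down proteins, sugars and lipids that arrive by endocytosis and autophagy. Most of the enzymes are made in the endoplasmic reticulum, carried by sorting receptors such as sortilin and matured by other proteases, while the V-ATPase keeps the lumen acid and the transcription factor TFEB raises the expression of many lysosomal genes. In oligodendrocytes, lysosomes take part in the turnover of myelin lipids, and loss of several of these enzymes causes storage disease with damage to white matter.

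TFEB binds an E-box with the core CACGTG, and promoters of lysosomal genes are known for it. Promoters of 250 bases before and 50 bases after the start of transcription (RefSeq, GRCm38.p6) were on hand for 31 of the 36 genes. The 6 letters CACGTG, which read the same on both strands, stood in promoters of 12 of the 31 and of 8.09% of the 27025 genes with a promoter. The longer TCACGTG, on either strand and always containing the shorter one, stood in 10 of the 31 and in 4.29% of all genes. TCACGTGA stood in 5 of the 31 and in 1.12% of all genes. A form of 10 letters, which extends TCACGTGA by a base on each side, stood in 0 of the 31 and in 0.37% of all genes. Lamp1 held 4 copies of CACGTG, and 4 or more were found in 6 genes in all (0.0222%), Lamp1 included. The following stretches are shown for Lamp1, which has most copies, for Gla, which holds the 8-letter form in 2 places, and for Gaa and Glb1, whose levels were highest in precursors. Capitals mark CACGTG with the T before it or the A after it where present.
Lamp1: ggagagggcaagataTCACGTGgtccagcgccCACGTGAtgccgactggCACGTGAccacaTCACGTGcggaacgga
Gla: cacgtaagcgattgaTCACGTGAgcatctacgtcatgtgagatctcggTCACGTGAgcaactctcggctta
Gaa: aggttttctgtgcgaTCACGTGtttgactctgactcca
Glb1: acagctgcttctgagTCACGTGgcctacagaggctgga
The stretches lie at chr8:13159084-13159160 (plus strand), chrX:134601178-134601248 (minus strand), chr11:119267807-119267844 (plus strand) and chr9:114401014-114401051 (plus strand), each outside the gene itself. The Lamp1 stretch ends at the base before the start. Letters in a promoter are a description and were not read as binding.

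Depth differed between libraries. The kept cells held a median of 3489.5 (control dOLCs), 5022 (control vOLCs) and 5318.5 UMIs (ectopic vOLCs), and 39 of 9252 distinct cell barcodes occurred in more than one library. The OPC markers (Pdgfra, Cspg4, Ptprz1 and Vcan together) stood at 6068 CPM in oligodendrocyte precursor cells (OPCs) and at 50.8 CPM in MOL5/6, the joined clusters MOL5/6a to MOL5/6d of mature oligodendrocytes, and the 4 mature markers (Mog, Mobp, Mag and Mal) at 2081 and 13883 CPM. COP/NFOL/MFOLa, which the name places between them and which is called newly formed cells below, held the OPC markers at 374.1 CPM and the mature markers at 17005 CPM, above MOL5/6. Its committed and newly formed markers (Bmp4, Neu4, Gpr17, Tcf7l2 and Itpr2) stood at 1784 CPM, against 1337 CPM in OPCs and 65.3 CPM in MOL5/6. Against OPCs, Bmp4, Gpr17 and Tcf7l2 were higher there. Neu4 (390.5 against 612 CPM) and Itpr2 (202.7 against 241.8 CPM) were lower. Levels are the UMIs that all cells of a cluster held in a library, per 1000000 (CPM). With 1 library per condition there is no replicate, so no test was made, and the 95% intervals cover counting error only. A ratio was read where the compared cells held at least 50 UMIs together and at least 10% of the cells of one side had a UMI. Values of 1.5-fold or more are called past the fold below, and beside each count of members stands the share of all genes that pass it.

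Of the 36 genes, 5 are best known from immune cells such as microglia, and all 5 were close to absent. Over all 9291 cells, cathepsin S (Ctss) had 30 UMIs, cathepsin H (Ctsh) 39, the macrophage sialomucin Cd68 27, and Laptm5 10. Cathepsin C (Ctsc), which activates granule proteases of immune cells, had 53 UMIs, of which 43 lay in OPCs. Of the UMIs of these genes, 6 of 10 for Laptm5, 6 of 30 for Ctss, 2 of 27 for Cd68, 2 of 39 for Ctsh and 0 of 53 for Ctsc lay in cells with a microglia marker UMI. The 11 microglia markers summed to 129 UMIs, 97 cells held at least one and 7 cells held 2 or more, and leaving out those 7 cells left the counts of members past the fold in OPCs and MOL5/6 over control dOLCs the same. Border macrophage markers had 0 UMIs in OPCs and 4 in MOL5/6, with 1 each in MOL1 and MOL2a. The V-ATPase subunit Atp6v0c had 96 UMIs, and its longest transcript matches 2 pseudogene transcripts over 389 and 387 bases at 97.2% and 99.7% identity, so its count is uncertain. The alpha-galactosidase Gla, with 333 UMIs, is the other member that passed the filter in no comparison. Laptm4b and Mcoln1 have like matches, over 685 and 400 bases at 96.6% and 95% identity, and are uncertain in the same way. Ctsd, Ctsl and Glb1 share exon sequence on their strand with the gene models Gm49369, Gm49230 and Tmppe, so their counts are uncertain through that overlap. Of all these partners only Tmppe is in the count table.

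Across the lineage the genes did not move as one. The clusters were built by the authors from the same counts, so differences between clusters are given as descriptions. Over 10 clusters, leaving out the 31 cycling OPCs, 29 members passed the filter. In CPM, 8 of these were highest in OPCs in both control dOLCs and ectopic vOLCs (31.7% of all genes): Tpp1, Hexa, Gaa, Glb1, Gusb, Ppt1, Laptm4a and Atp6v1a. With TMM factors MOL5/6 of ectopic vOLCs stood above OPCs for Tpp1 (0.056) and Atp6v1a (0.29), and the peaks themselves were read in CPM only. Another 7 were highest in COP/NFOL/MFOLa, the committed precursors and newly formed cells (6.29% of all genes): the proteases Ctsb, Ctsf, Ctsl, Lgmn and Ctsa, the membrane protein Scarb2 and Tfeb. Of these, Ctsf was near level with OPCs, at log2 ratios of 0.008 (-0.35 to 0.35) in control dOLCs and 0.21 (-0.44 to 0.81) in ectopic vOLCs. Among mature clusters, MOL2a was the peak of Ctsz and Laptm4b (1.9% of all genes) and MOL5/6b that of Sort1 (0.802%). None peaked in both libraries in MOL1 (0.414%), MOL2b (5.27%), MOL5/6a (0.285%), MOL5/6c (3.64%) or MOL5/6d (2.14%). The remaining members peaked in different clusters in the 2 libraries, except Cst3, described below.

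**Figure D1:**
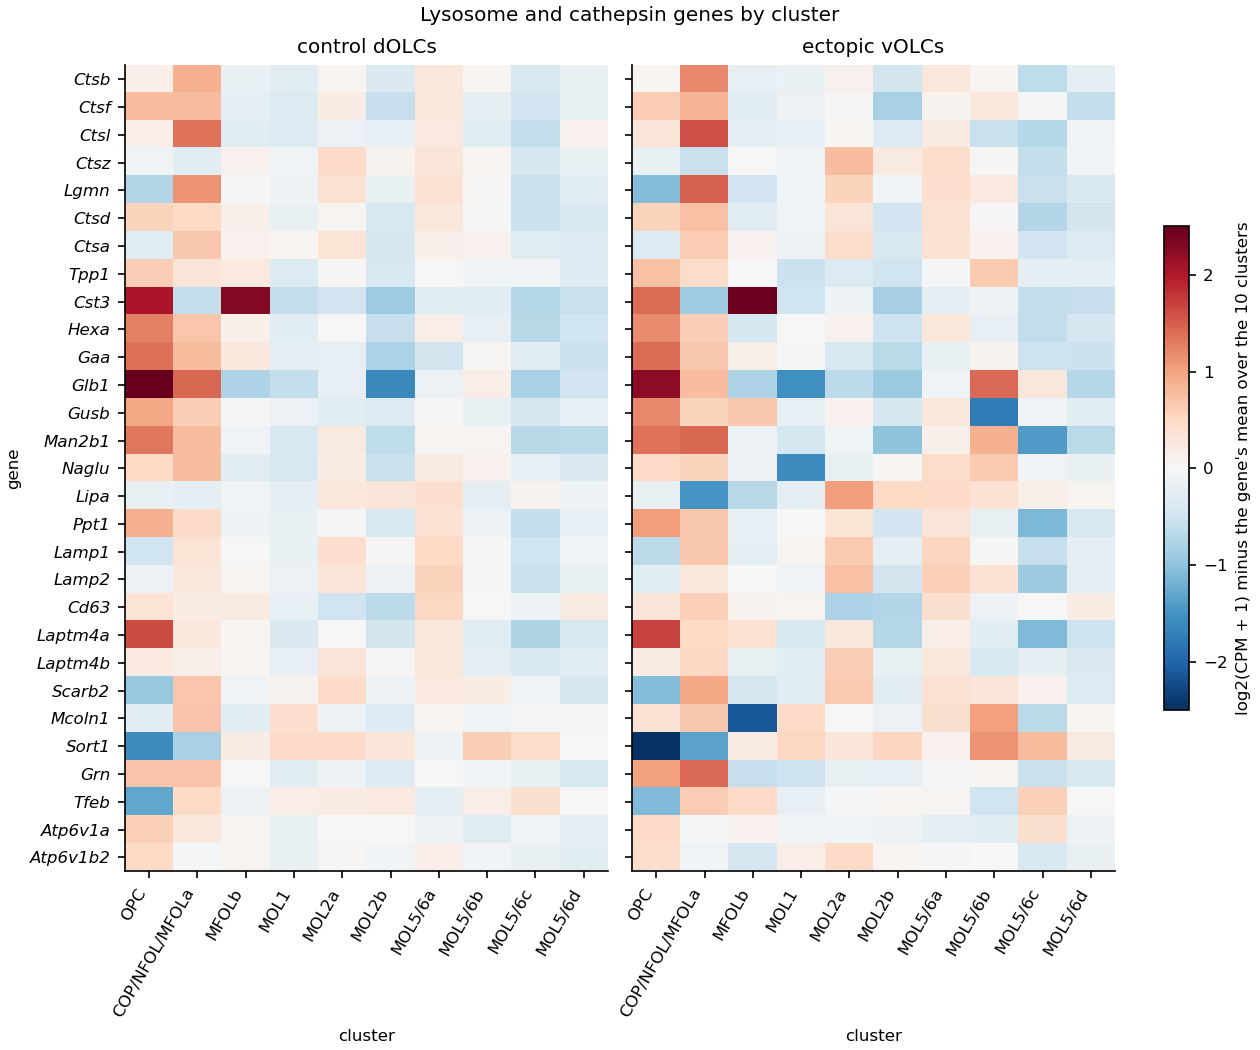
Level of the 29 members that passed the filter in 10 clusters of control dOLCs (left) and ectopic vOLCs (right). Colour gives log2(CPM + 1) minus the gene's mean over the 10 clusters of that library. Hexa, Gaa, Glb1 and Laptm4a are reddest in OPCs, Ctsl and Lgmn in COP/NFOL/MFOLa, and Sort1 is bluest in OPCs.

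Legumain (Lgmn, chr12:102394084-102439813), an asparaginyl endopeptidase that processes other cathepsins, showed the widest step among the proteases. In OPCs it stood at 187 CPM in control dOLCs, above control vOLCs (159.6 CPM) and ectopic vOLCs (150.6 CPM). In COP/NFOL/MFOLa the same libraries gave 676, 700 and 890.3 CPM, from 76, 13 and 22 cells. All 3 libraries were thus several-fold higher in the newly formed cells, and the log2 ratios were 1.85 (1.65 to 2.06), 2.13 (1.60 to 2.66) and 2.56 (2.23 to 2.89). In MOL5/6 Lgmn stood between the other levels, at 280.1, 279.1 and 318.7 CPM. Cathepsin L (Ctsl), a lysosomal cysteine protease, went from 198.8, 212.8 and 212.1 CPM in OPCs to 453.4, 493.4 and 522.1 CPM in COP/NFOL/MFOLa, and was at 152.5, 175.7 and 171.1 CPM in MOL5/6, in the order control dOLCs, control vOLCs, ectopic vOLCs. Of these 3 groups of cells the newly formed ones held most Ctsl in each library. The order of MOL5/6 and OPCs turned with the scaling, from log2 ratios of -0.38, -0.28 and -0.31 in CPM to 0.28, 0.57 and 0.61 with TMM factors, so no direction is given between them.

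Of 29 members past the filter, 8 were past the fold higher in COP/NFOL/MFOLa than in OPCs in both control dOLCs and ectopic vOLCs (9.86% of all genes). They were Ctsb, Ctsl, Lgmn, Ctsa, Lamp1, Scarb2, Sort1 and Tfeb. In ectopic vOLCs the Sort1 value rests on 8 UMIs in COP/NFOL/MFOLa, with an interval from -0.19 to 2.32. The aspartic protease Ctsd was not among them, at log2 ratios of -0.05, 0.27 and 0.17 in the 3 libraries. The 4 that were lower were Cst3, Gaa, Glb1 and Laptm4a (25.8% of all genes), of which Glb1 in ectopic vOLCs rests on 2 UMIs in COP/NFOL/MFOLa (-4.63 to 0.39). The glycosidase Gaa, which breaks down glycogen, was lower by log2 values of -0.60 (-1.02 to -0.19) in control dOLCs and -0.72 (-1.66 to 0.10) in ectopic vOLCs. The median over the 29 members was -0.07 and 0.17 in these libraries, against -0.28 and -0.44 over all 6904 genes tested. In control vOLCs it went the other way, at -0.28 against -0.14 over all genes. The 8 members stayed higher by the fold with TMM factors and with size factors, and of the 4 lower ones only Gaa came inside the fold. Control vOLCs contribute 13 cells and are shown for their values only.

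**Figure D2:**
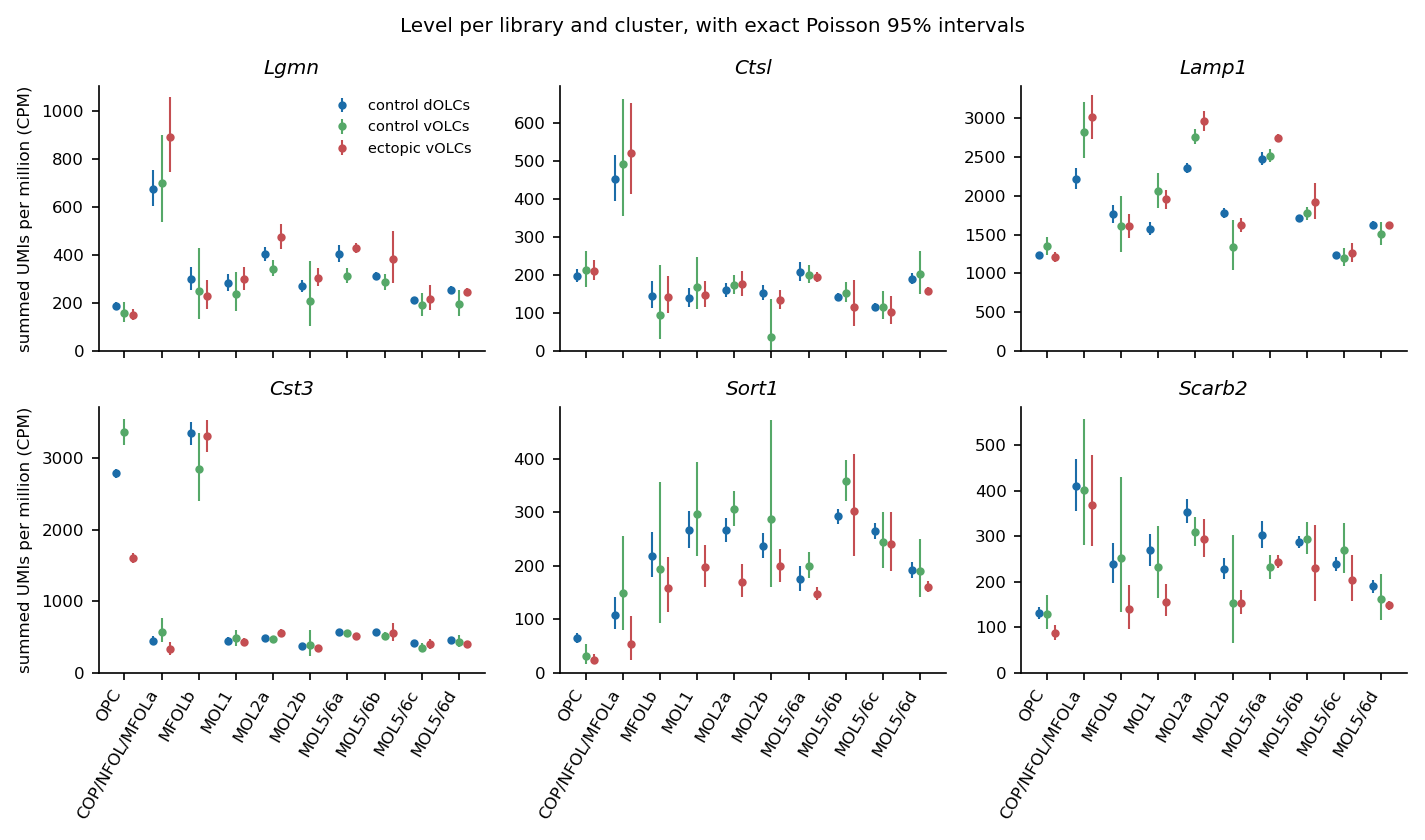
Level in CPM of 6 members in 10 clusters for each library, as points with exact Poisson 95% intervals. Lgmn and Ctsl peak in COP/NFOL/MFOLa, Cst3 is high in OPCs and MFOLb only, and Sort1 is low in OPCs. In OPCs the Cst3 point of ectopic vOLCs (1600 CPM) lies below those of both controls.

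Between COP/NFOL/MFOLa and MOL5/6, 15 of 29 members were past the fold higher in the newly formed cells in both libraries (16.5% of all genes) and 1, Sort1, was lower (9.21%). The 15 included 6 proteases (Ctsb, Ctsf, Ctsl, Lgmn, Ctsd and Ctsa), 5 enzymes of sugar and lipid breakdown (Hexa, Gaa, Glb1, Gusb and Man2b1), the thioesterase Ppt1, the membrane proteins Laptm4a and Scarb2, and progranulin (Grn), a secreted precursor of granulins found in lysosomes. Cathepsin B (Ctsb), a cysteine protease of most cell types, stood at 1334, 1423 and 1667 CPM in COP/NFOL/MFOLa against 676, 662.3 and 714.9 CPM in MOL5/6 (control dOLCs, control vOLCs, ectopic vOLCs). Newly formed cells exceeded mature cells in each library for Ctsb, whereas in newly formed cells of ectopic vOLCs Glb1 rests on 2 UMIs and Gusb on 6, with intervals of -1.82 to 3.18 and -0.85 to 1.75. With TMM factors the count fell to 8 of 29 (11.2% of all genes) and with size factors to 10 of 29 (13.5%), and Ctsb, Ctsf, Ctsl, Lgmn, Gaa, Glb1, Man2b1 and Grn were in the 15, the 8 and the 10.

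Comparing mature cells with precursors depended on scaling. In MOL5/6 over OPC within each library, 28 members passed the filter. Scarb2, Sort1 and Tfeb were past the fold higher in all 3 libraries (12.9% of all genes), and 13 members were lower (35.7%). TMM factors moved the median log2 ratio of all genes from -0.37 to 0.29 in control dOLCs, and likewise from -0.38 to 0.46 (control vOLCs) and from -0.54 to 0.38 (ectopic vOLCs). Under TMM factors 9 members were higher (33.3% of all genes) and 4 lower (18.7%), and under size factors 8 were higher (29.7%) and 5 lower (20%). Scarb2, Sort1 and Tfeb were higher, and Cst3, Gaa, Glb1 and Laptm4a lower, under CPM, TMM and size factors. With TMM factors the sign turned in at least one library for 11 of the 28, against 44.9% of all genes tested, so no direction is given for them. The factors shift every gene of a library alike, by 0.66, 0.85 and 0.92 on the log2 scale. The 11 were Ctsb, Ctsl, Cd63 and Laptm4b, which turned in all 3 libraries, and Ctsd, Tpp1, Lipa, Mcoln1, Grn, Atp6v1a and Atp6v1b2.

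Sortilin (Sort1, chr3:108284082-108361511), a receptor that carries proteins from the Golgi to lysosomes, had the largest log2 ratios of these 3 in each library. It stood at 64.0, 30.4 and 24.1 CPM in OPCs and at 250.5, 256.5 and 160.1 CPM in MOL5/6 (control dOLCs, control vOLCs, ectopic vOLCs). The log2 ratios were 1.97 (1.75 to 2.20), 3.08 (2.26 to 4.04) and 2.73 (2.20 to 3.31), so mature cells were higher in every library. Laptm4a, a small membrane protein of late endosomes and lysosomes, ran the other way, at 778.9, 1044 and 856.8 CPM in OPCs and 195.1, 220.2 and 224.9 CPM in MOL5/6. Glb1, the lysosomal beta-galactosidase, stood at 68.2, 32.9 and 39.1 CPM in OPCs and 6.33, 4.11 and 5.58 CPM in MOL5/6, with log2 ratios from -3.43 to -2.81. Tfeb was at 23.6, 12.7 and 23.3 CPM in OPCs and 67.3, 64.4 and 52.7 CPM in MOL5/6, from as few as 5 UMIs in OPCs of control vOLCs.

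The subclusters of MOL5/6 differed in these genes. MOL5/6a exceeded MOL5/6c past the fold in all 3 libraries for 10 of 27 members, against 4.71% of all genes. The 10 were Ctsb, Ctsl, Ctsz, Lgmn, Ctsd, Man2b1, Ppt1, Lamp1, Lamp2 and Laptm4a, and none of the 27 was lower (12.6% of all genes). Man2b1 rests on 3 UMIs in MOL5/6c in control vOLCs (-0.15 to 3.88) and on 3 in ectopic vOLCs (0.07 to 3.95). The median over the members was 0.64, 0.67 and 0.52 on the log2 scale (control dOLCs, then control vOLCs, then ectopic vOLCs), against -0.19, -0.10 and -0.24 over all genes tested. With TMM factors 12 of 27 were higher (8.66% of all genes) and with size factors 13 (9.11%), and still none was lower. Of the comparisons between clusters only MOL5/6 over OPC was planned, and the other pairs of MOL5/6 subclusters are not given. MOL5/6c was the lowest of 10 clusters in both control dOLCs and ectopic vOLCs for Ctsb, Ctsl, Ctsz, Ctsd, Man2b1, Ppt1, Lamp2 and Laptm4a. The count therefore describes this pair only.

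Lamp1 and Lamp2 encode the most abundant glycoproteins of the lysosomal membrane. Lamp1 (chr8:13159161-13175338) stood at 2474, 2511 and 2738 CPM in MOL5/6a and at 1239, 1203 and 1266 CPM in MOL5/6c (control dOLCs, control vOLCs, ectopic vOLCs). Lamp2 stood at 391.5, 343 and 435.5 CPM in MOL5/6a and at 178.1, 166.3 and 152.7 CPM in MOL5/6c. Both genes were thus higher in MOL5/6a than in MOL5/6c within each library. Sort1 went against this, at 175.2, 199.7 and 148 CPM in MOL5/6a and 264.6, 243.9 and 240 CPM in MOL5/6c. The subclusters also differed in other RNA: ribosomal protein genes took a median of 6.27% of UMIs per cell in MOL5/6c and 3.097% in MOL5/6a. The median share of mitochondrial counts was 5.59% in MOL5/6c and 7.94% in MOL5/6a. The part of these differences in the result was not tested.

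**Figure D3:**
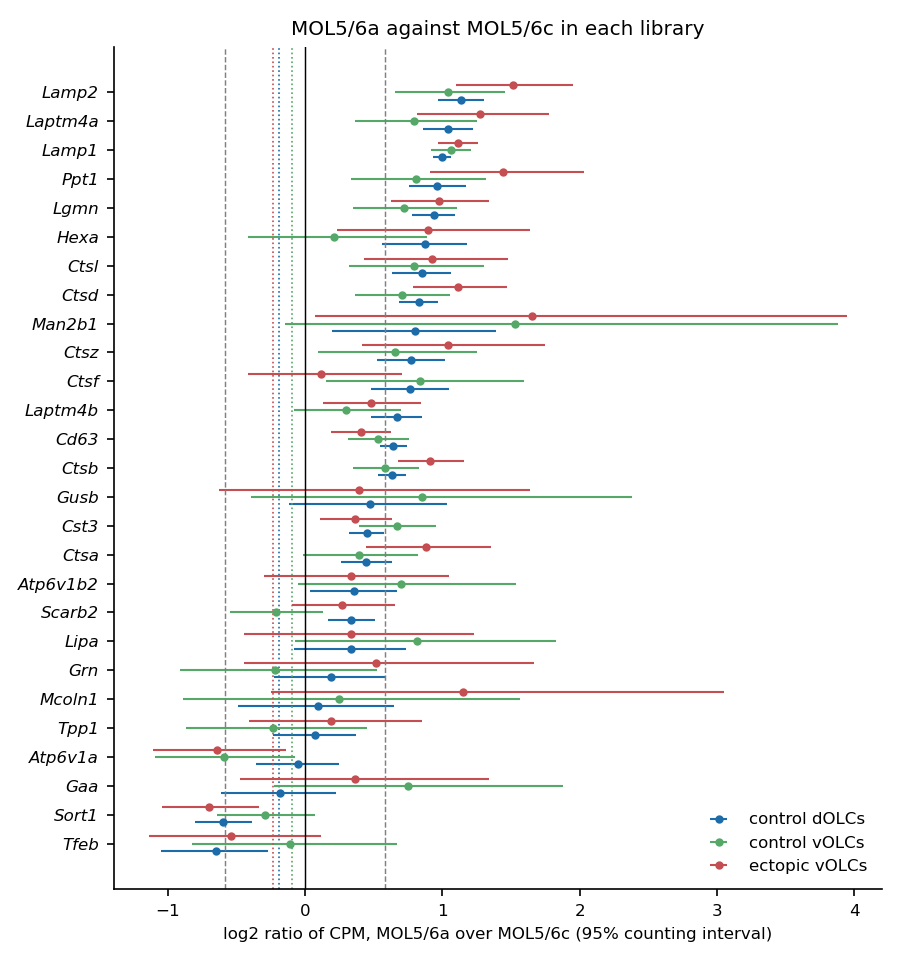
Log2 ratio of CPM of MOL5/6a over MOL5/6c for 27 members in each library, with 95% counting intervals. Dashed lines mark 1.5-fold, and dotted lines the median of all genes tested in each library (-0.19, -0.10 and -0.24). Most members lie to the right of 0, and Sort1, Tfeb and Atp6v1a to the left in all 3 libraries.

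In MOL2a, another mature cluster, no member was past the fold from MOL5/6 in all 3 libraries in either direction (2.99% of all genes higher, 2.09% lower). Lamp1 in MOL2a stood at 2353, 2758 and 2960 CPM, and Lamp2 at 324.6, 384.1 and 476.6 CPM, in the order control dOLCs, control vOLCs, ectopic vOLCs. Ctsz, a carboxypeptidase among the cathepsins, was at 178.4, 183.1 and 170 CPM there, above the 120.3, 125 and 109.1 CPM of MOL5/6. The tetraspanin Cd63, found in late endosomes and exosomes, was lower, at 460.3, 340.7 and 334.2 CPM against 682.8, 719.5 and 685.2 CPM, with log2 ratios of -0.57 (-0.67 to -0.47), -1.08 (-1.24 to -0.92) and -1.04 (-1.23 to -0.85). The first of these lay just inside the fold, and with TMM factors Cd63 was past it in all 3 libraries.

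The comparison of ectopic vOLCs with each control asks whether ventral OLCs in former dorsal territory resemble those they replaced. The 2 ratios share the ectopic library. Both control libraries were sorted from mice of the same genotype and may hold cells of the same animals, so they are not independent control groups. In MOL5/6, 27 members passed the filter, and as a group they lay near 0. Their median log2 ratio was 0.01 over control dOLCs and -0.01 over control vOLCs, against -0.03 and -0.02 over all genes, and control vOLCs over control dOLCs gave 0.06 (26 members) against -0.03. Past the fold, 1 member was lower over control dOLCs (11.5% of all genes), 1 over control vOLCs (12.4%) and none was higher (1.13% and 1.46%). Against both controls 1 member, Sort1, was lower (6.6% of all genes), and none was higher (0.518%). Control vOLCs over control dOLCs had none past the fold (2.56% higher, 0.731% lower). TMM factors moved the median of all genes by 0.17 and 0.15 in the ectopic comparisons, and the member medians to 0.18 and 0.13.

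Sort1 in MOL5/6 had 3717, 749 and 1693 UMIs, or 250.5, 256.5 and 160.1 CPM (control dOLCs, control vOLCs, ectopic vOLCs). The controls were close to each other and the ectopic library was lower, with log2 ratios of -0.65 (-0.73 to -0.56) and -0.68 (-0.80 to -0.55). The subclusters of MOL5/6 are unevenly filled, however: of 1842 ectopic MOL5/6 cells, 900 were in MOL5/6a and 42 in MOL5/6b, against 333 and 1947 of 3777 in control dOLCs. Sort1 was highest in MOL5/6b in each library, and lowest in MOL5/6a in control dOLCs and ectopic vOLCs. Within MOL5/6a, b, c and d the ratios over control dOLCs were -0.24, 0.05, -0.14 and -0.25, and over control vOLCs -0.43, -0.25, -0.02 and -0.25. With the 4 subclusters weighted alike the values were -0.15 and -0.24, inside the fold, and with TMM factors -0.48 and -0.53. In MOL2a, which is 1 cluster, Sort1 stood at 266.6, 305.8 and 170 CPM, with log2 ratios of -0.65 (-0.95 to -0.36) and -0.85 (-1.16 to -0.54).

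Sort1 also has a long transcript of 6836 bases, and ratios in MOL5/6 were lower for longer transcripts. Across genes, length and log2 ratio had a Spearman's rho of -0.53 over control dOLCs (5082 genes) and -0.50 over control vOLCs (5352 genes). These genes share their libraries and are not independent. After the median of genes of like length was taken off, Sort1 was at -0.23 and -0.33.

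**Figure D4:**
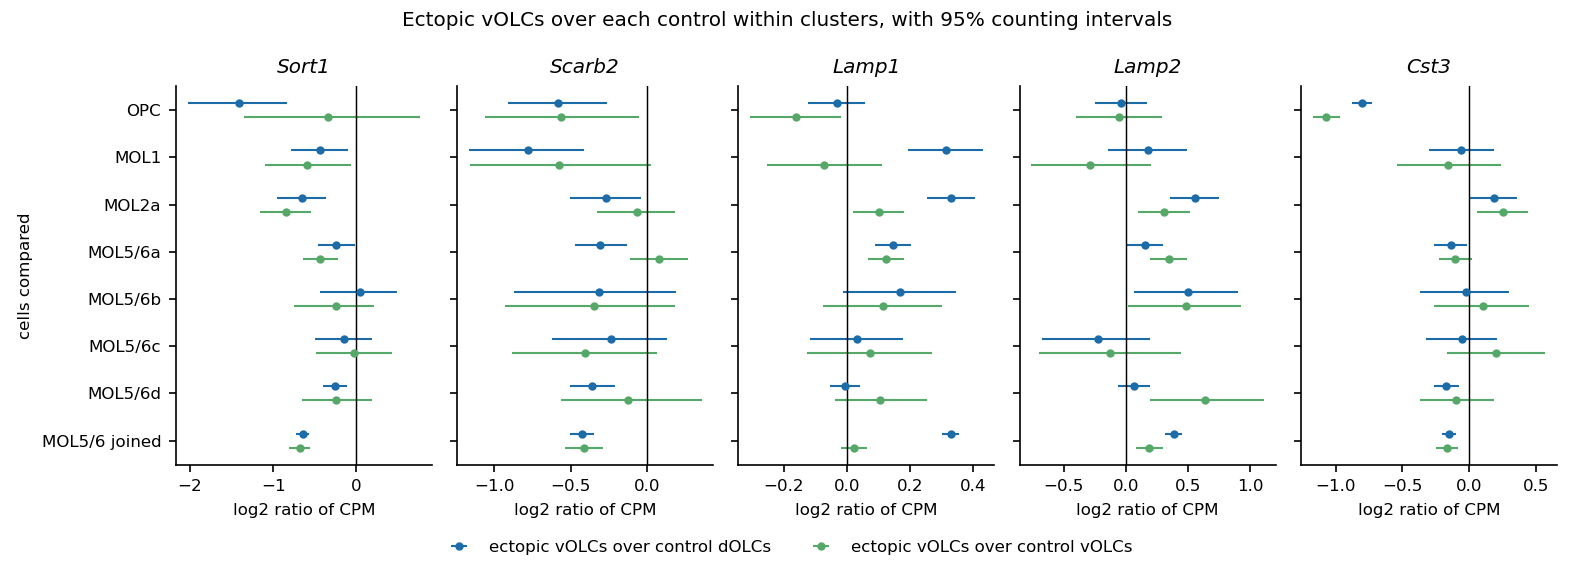
Log2 ratio of CPM of ectopic vOLCs over control dOLCs and over control vOLCs for 5 members, in OPCs, in single mature clusters and in MOL5/6 joined, with 95% counting intervals. Sort1 is lower in MOL5/6 joined (-0.65 and -0.68) than in any of its 4 subclusters. Among the cells shown, which leave out COP/NFOL/MFOLa, Cst3 lies far below 0 in OPCs only.

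The lysosomal membrane protein Scarb2, which carries glucocerebrosidase to lysosomes, was at 252, 250.3 and 187.7 CPM in MOL5/6, in the same order of libraries. Its log2 ratios were -0.43 (-0.50 to -0.35) and -0.42 (-0.54 to -0.29), inside the fold, and -0.14 and -0.17 once genes of like length were taken off. Progranulin (Grn) was at 46.6, 52.1 and 35.1 CPM, with ratios of -0.41 (-0.59 to -0.22) and -0.57 (-0.85 to -0.29), which became -0.48 and -0.63 relative to genes of like length. Tfeb was at 67.3, 64.4 and 52.7 CPM, with ratios of -0.35 (-0.51 to -0.20) and -0.29 (-0.53 to -0.04). The Tfeb ratios became -0.18 and -0.14 with TMM factors, and Tfeb no longer passed the filter once cells were thinned to 1000 UMIs. In CPM all 3 of these members were lowest in the ectopic library. Laptm4b, a membrane protein of late endosomes and lysosomes, was highest there, at 196.8, 214.4 and 239.3 CPM, with ratios of 0.28 (0.21 to 0.36) and 0.16 (0.03 to 0.29). Lgmn gave 0.19 over each control, and Ppt1 0.25 (0.16 to 0.33) and 0.07 (-0.07 to 0.21). Among further members, Ctsb, Ctsd, Hexa, Gusb, Cd63, Laptm4a, Mcoln1, which is a calcium channel of the lysosome, and Atp6v1b2 had ratios between -0.10 and 0.21 over control dOLCs and between -0.07 and 0.15 over control vOLCs. Gaa gave -0.43 (-0.60 to -0.26) over control dOLCs and -0.06 (-0.35 to 0.23) over control vOLCs. Naglu, which degrades heparan sulfate, did not pass the filter in MOL5/6, with 244, 57 and 154 UMIs.

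In MOL5/6 joined, Lamp1 and Lamp2 were lowest in control dOLCs. Lamp1 in MOL5/6 was at 1628 CPM (control dOLCs), 2015 CPM (control vOLCs) and 2047 CPM (ectopic vOLCs), so that the ratio was 0.33 (0.30 to 0.36) over control dOLCs and 0.02 (-0.02 to 0.06) over control vOLCs. Control vOLCs over control dOLCs gave 0.31 (0.27 to 0.35). Lamp2 was at 242.5, 277.7 and 316.8 CPM, with ratios of 0.39 (0.32 to 0.45) and 0.19 (0.08 to 0.30), so control vOLCs lay between the other libraries. With subclusters weighted alike, ectopic vOLCs over control dOLCs was 0.09 for Lamp1 and 0.12 for Lamp2. The ratio of control vOLCs over control dOLCs then turned to -0.019 for Lamp1 and to -0.21 for Lamp2, so control dOLCs were then not the lowest. Both genes were at their highest in MOL5/6a among the MOL5/6 subclusters of each library, and MOL5/6a holds a larger part of the cells in both ventral libraries.

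**Figure D5:**
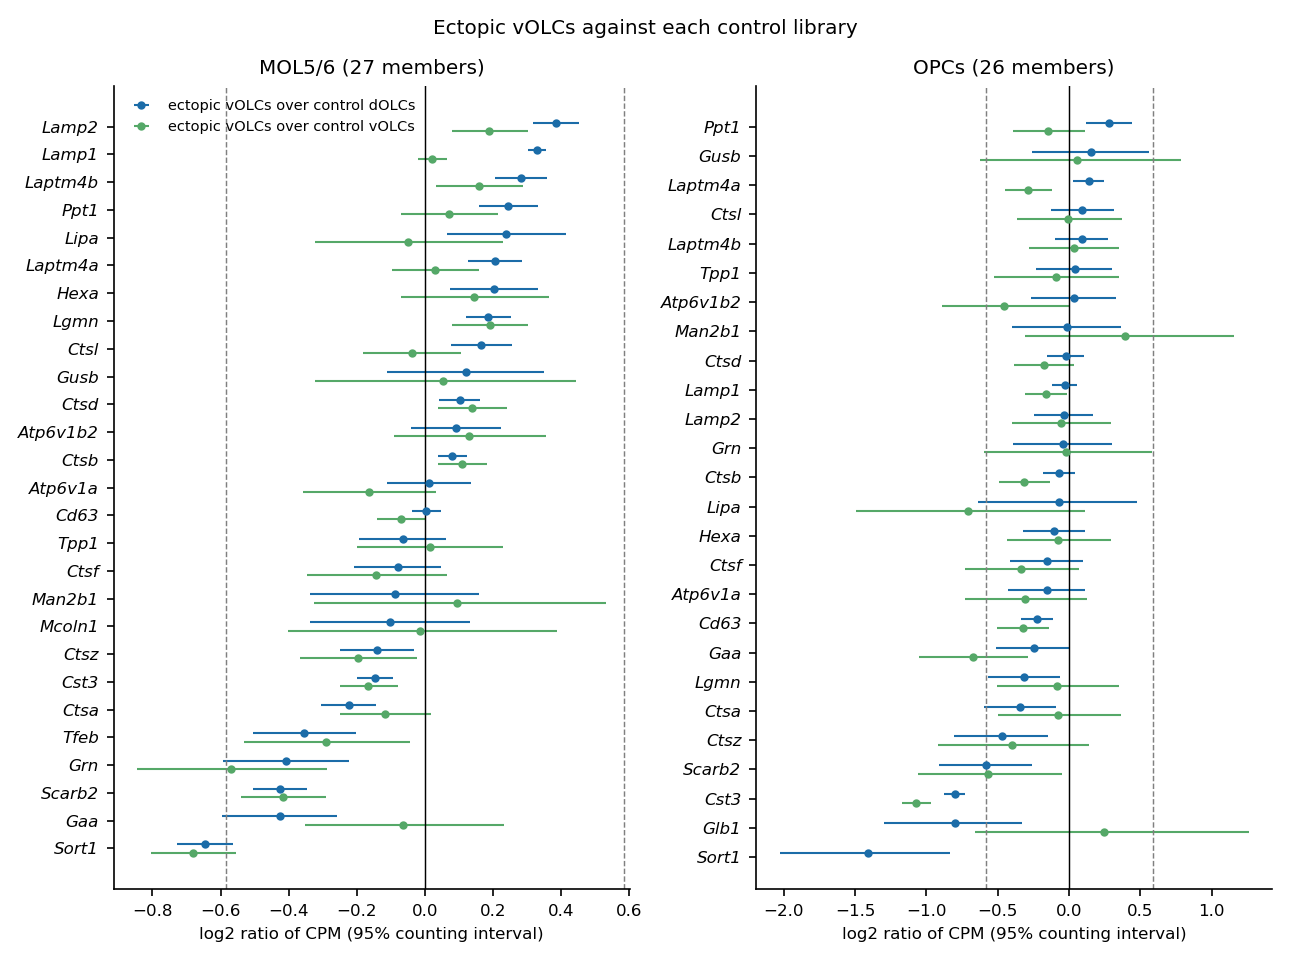
Log2 ratio of CPM of ectopic vOLCs over control dOLCs and over control vOLCs for members past the filter, in MOL5/6 (left) and OPCs (right), with 95% counting intervals. Dashed lines mark 1.5-fold. Sort1 (-0.65 and -0.68) is the one member beyond a dashed line against both controls in MOL5/6, and Cst3 (-0.80 and -1.07) the one in OPCs.

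In OPCs the members lay below the genes as a whole. Over control dOLCs the median of 26 members was -0.07 against 0.08 over all genes, and over control vOLCs the median of 25 members was -0.16 against 0.04. The medians were -0.20 and -0.26 relative to genes of like length. Control vOLCs over control dOLCs gave 0.10 against 0.03. Past the fold, 3 members were lower over control dOLCs (5.79% of all genes) and 3 over control vOLCs (9.77%), and none was higher (5.34% and 18%). Control vOLCs over control dOLCs had 1 higher (Lipa, 10.8%) and 2 lower (Glb1 and Sort1, 12.1%). Against both controls 1 member, Cst3, was lower (1.69% of all genes), and none was higher (2.86%).

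Cystatin C (Cst3, chr2:148871722-148875692, minus strand), a secreted inhibitor of cysteine cathepsins, had 7314, 1325 and 1923 UMIs in OPCs (control dOLCs, control vOLCs, ectopic vOLCs). These are 2786, 3357 and 1600 CPM, so the ectopic library was lowest and control vOLCs highest. The log2 ratios were -0.80 (-0.87 to -0.73) over control dOLCs and -1.07 (-1.17 to -0.97) over control vOLCs, and control vOLCs over control dOLCs gave 0.27 (0.18 to 0.35). The shift was seen across cells: the median cell had 25.0, 30.8 and 14.9 Cst3 UMIs per 10000, and the cell at the upper quartile of ectopic OPCs (21.2) lay below the median cell of each control. A UMI was found in 98.9%, 99.2% and 97.9% of OPCs. The ratio over control dOLCs lay between -0.84 and -0.80, and that over control vOLCs between -1.07 and -1.002, under every alternative of scaling and cell choice run, and relative to genes of like length they were -1.02 and -1.71. Cst3 is among genes that the study itself picked on these libraries, so its direction here is no independent evidence.

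Cst3 is also highly expressed by astrocytes. The 6 astrocyte markers summed to 1004 CPM, 1084 CPM and 1028 CPM in OPCs, in the same order of libraries, with the most specific at low levels (Gja1 at 0.947 CPM and Aqp4 at 18.7 CPM over all OPCs). The sum thus rests on Slc1a3, Slc1a2 and Aldoc, at 408.8, 370.6 and 219.1 CPM. The 5 stress genes (Fos, Jun, Egr1, Hspa1a and Hspa1b) summed to 538.6, 453.5 and 733.7 CPM. The part of astrocyte RNA and of the stress genes in the result was not tested. In COP/NFOL/MFOLa Cst3 stood at 445.4, 573.7 and 328 CPM, from 222, 50 and 49 UMIs, so the ectopic library was lowest there too. In mature cells Cst3 was near level, at 497.5, 503.8 and 449.2 CPM in MOL5/6, with ratios of -0.15 (-0.20 to -0.09) and -0.17 (-0.25 to -0.08). The first of these became 0.02 with TMM factors and 0.04 with size factors.

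MFOLb held Cst3 at 3345, 2844 and 3304 CPM, the highest of the 10 clusters in control dOLCs and ectopic vOLCs (2.11% of all genes peaked there). This cluster also held the astrocyte markers at 3271 CPM, including Gja1 at 245.4 CPM and Aqp4 at 137 CPM, and 86 of its 157 cells (54.8%) had a UMI of Aqp4 or Gja1, against 6.06% of OPCs and at most 3.60% of the cells of any other cluster. Cst3 stood at 4031 CPM in those 86 cells and at 2185 CPM (2026 to 2354) in the other 71. Both values exceed the Cst3 level in the mature clusters, where the highest was 565.2 CPM. The part of astrocyte RNA in the MFOLb value was not tested, and without this cluster Cst3 peaked in OPCs with the 8 members named above (34.3% of all genes).

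In OPCs 4 further members were, in CPM, past the fold against a single control. Sort1 was at 64.0 CPM in control dOLCs but at 30.4 CPM in control vOLCs and 24.1 CPM in ectopic vOLCs, from 168, 12 and 29 UMIs, and gave -1.41 (-2.03 to -0.83) over control dOLCs, while too few UMIs were left to read it over control vOLCs. Control vOLCs over control dOLCs gave -1.07 (-2.05 to -0.23), so control dOLCs stood apart from both ventral libraries. The mature oligodendrocyte markers, which OPCs should lack, moved the same way, at 2660, 1135 and 1127 CPM in these OPCs. Their part in the Sort1 value was not tested. Glb1 was at 68.2, 32.9 and 39.1 CPM, with -0.80 (-1.30 to -0.33) over control dOLCs and 0.25 (-0.66 to 1.26) over control vOLCs. Gaa was at 169.9, 228 and 143.1 CPM, with -0.25 (-0.51 to 0.01) and -0.67 (-1.05 to -0.29), and Lipa, the acid lipase, was at -0.71 (-1.49 to 0.11) over control vOLCs, which held 22 UMIs. Scarb2 lay at the edge of the fold, at 130.6, 129.2 and 87.3 CPM, with ratios of -0.58 (-0.91 to -0.26) and -0.56 (-1.06 to -0.05).

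Other genes of the pathway were counted from 5 lists. In MOL5/6, 20 of 29 other enzymes passed the filter over control dOLCs, and 3 of them were past the fold lower (11.5% of all genes) and 1 higher (1.13%). Of 22 past the filter over control vOLCs, 3 were lower (12.4%). Among other membrane proteins 1 of 10 was lower over control dOLCs and 2 of 12 over control vOLCs, and among trafficking and nutrient sensing genes none of 17 and none of 18 passed the fold. Against both controls, where 6.6% of all genes were lower, 3 genes of the lists were: Ids, Gnptab and Npc1. Iduronate-2-sulfatase (Ids), which degrades glycosaminoglycans, stood at 71.2, 62.7 and 28.9 CPM (control dOLCs, control vOLCs, ectopic vOLCs), and had ratios of -1.30 (-1.49 to -1.11) and -1.11 (-1.38 to -0.84). Gnptab, part of the enzyme that tags hydrolases with mannose 6-phosphate, was at 62.8, 65.8 and 38.5 CPM, and Npc1, a cholesterol exporter of the lysosome, at 306.1, 284.6 and 166.2 CPM. Npc1 also belongs to the genes the study picked on these libraries. For Ids, Gnptab and Npc1, ratios with subclusters weighted alike or relative to genes of like length were not computed. The 14 other V-ATPase subunits past the filter had medians of 0.17 and 0.20 and none was past the fold, and the same held for 11 autophagy genes (medians of 0.05 and 0.19). In OPCs no gene of the 5 lists was past the fold in one direction against both controls (2.86% of all genes higher, 1.69% lower). Over control vOLCs alone, 4 of 9 autophagy genes, 5 of 15 trafficking and nutrient sensing genes and 4 of 15 V-ATPase subunits were past the fold higher (18% of all genes). Lower over control vOLCs were 4 of 19 other enzymes, 3 of 13 membrane proteins, 3 V-ATPase subunits and 1 trafficking gene (9.77%). Over control dOLCs at most 2 genes of a list passed the fold in a direction (5.34% of all genes higher, 5.79% lower). The 9 autophagy genes had a median of 0.18 over control dOLCs and 0.58 over control vOLCs, against 0.08 and 0.04 over all genes. They also differed between the controls, with a median of -0.52 for control vOLCs over control dOLCs against 0.03 over all genes, from 121 OPCs of control vOLCs.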

How the data were processed

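Oligodendrocyte lineage cells were sorted by FACS and sequenced as droplet (10x) libraries by the authors, who deposited raw UMI counts per gene and cell, with no normalization, and an annotation of kept cells. Per the labels, reads were processed with Cell Ranger 2.1.1 against mm10, and Seurat was used for clustering. The percent of mitochondrial counts per cell was deposited by the authors; cells with over 200 and under 3000 genes and at most 15% were kept. The study's reporting summary gives this version too, and its methods name another. Of the annotation's columns, 7 were not used.

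Here, counts of all cells of a cluster were added up within each library and scaled to 1000000 (CPM). Totals were 23078181 UMIs (control dOLCs), 4846391 (control vOLCs) and 14293675 (ectopic vOLCs). Levels carry exact Poisson and ratios conditional exact binomial intervals (95%). A gene needed 50 UMIs and a UMI in 10% of the cells of one side. A call across clusters needed 1.5-fold in each library named. Doublets were not called; an alternative left out the 6% of cells with most UMIs. Transcript lengths, gene positions and overlaps came from GENCODE vM21 (GRCm38) and near-identical transcripts from BLAST 2.17.0. Alternatives used TMM factors (edgeR 4.0.16), size factors (DESeq2 1.42.0), 1000 UMIs per cell, a 10% mitochondrial limit and subclusters weighted alike. Intervals were tested on simulated data drawn with counting error only, which cannot show how they fare with variation between cells, animals or libraries. The members and lists were chosen with earlier results of these data known. All members are named; other pathway genes only where past the fold against both controls. Of the mature oligodendrocyte and the astrocyte markers, 1 each is not reported here.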

Additional observations from a re-analysis of the deposited data

Results flagged for a closer look

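Lgmn over control dOLCs was at -0.31 (-0.57 to -0.06) in OPCs and at 0.19 (0.12 to 0.25) in MOL5/6, so the ectopic library lay below control dOLCs in precursors and above it in mature cells. Ctsb over control vOLCs was at -0.32 (-0.49 to -0.14) in OPCs and at 0.11 (0.04 to 0.18) in MOL5/6. They stand here because the same contrast took opposite signs in the 2 cell types with counting intervals that leave out 0. With 1 library per condition, the difference between the cell types was not tested.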

How the results depend on the processing

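In MOL5/6 the member median of ectopic vOLCs over control dOLCs (0.01) became 0.18 with TMM factors, 0.20 with size factors, 0.13 with each cell thinned to 1000 UMIs (15 members) and -0.084 with subclusters weighted alike. The count past the fold there (1, Sort1) became 0 with TMM factors, size factors, thinning, subclusters weighted alike and genes of like length taken off, and 4 of 36 members with no filter (30% of all genes in either direction). Over control vOLCs the median (-0.01) became 0.13 with TMM factors and 0.15 with size factors. Control vOLCs over control dOLCs (0.06) became -0.10 with subclusters weighted alike. The medians of MOL5/6 over OPC (-0.55, -0.65 and -0.44 in control dOLCs, control vOLCs and ectopic vOLCs) became 0.11, 0.20 and 0.48 with TMM factors and 0.032, 0.035 and 0.39 with size factors, and 3 higher and 13 lower members became 9 and 4, or 8 and 5. In this comparison 11 of 28 members turned sign in at least one library with TMM factors (44.9% of all genes). Of the values past the fold in CPM, signs turned with TMM factors for Atp6v1b2 in control dOLCs (0.037), for Grn (0.12) and Atp6v1a (0.065) in control vOLCs, and for Ctsd (0.28), Tpp1 (0.056) and Atp6v1a (0.29) in ectopic vOLCs, and with size factors for Ctsd (0.20) and Atp6v1a (0.20) in ectopic vOLCs. The cause was not tested. The other 89 summary values stayed within set limits. Medians, which have no interval of their own, were judged against the width of single members' counting intervals, and counts moved by at most 1.5 times. Of the remaining values, most for single genes, 1743 stayed the same by like rules, 348 moved and the 8 named above turned sign. The alternatives without MFOLb, by Aqp4 or Gja1 UMIs, and with TMM or size factors between other clusters were chosen after seeing the data. The control libraries may share their animals, but no paired analysis was possible because the annotation does not tell single animals apart. Control vOLCs, with 121 OPCs and 13 cells in COP/NFOL/MFOLa, limit what those comparisons can show.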
